A study of Mus musculus with 72 samples.

Results

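Of the 55416 genes counted in the pituitary, epididymal white adipose tissue (eWAT) and liver of male mice, 10 genes of the growth hormone (GH) receptor and insulin-like growth factor (IGF) axis are described here. They are Ghr, Stat5b, Socs2, Igf1, Igf1r, Igfals, Igfbp1, Igfbp2, Igfbp3 and Igfbp4, chosen by symbol, and each symbol matched 1 Ensembl identifier. The mice were offspring of the sighted FVB strain FVB.129P2-Pde6b+ Tyrc-ch/AntJ, born to dams that ate freely (FED) or to dams whose food was cut by 20% from late gestation to weaning (CR20). From 8 weeks of age they were given either CTRL food, with 10% fat, or HFD food, with 45% fat. The labels leave 10 or 16 weeks on the diet open, and the study's methods give 10 weeks for the sequenced males. Each of the FED-CTRL, FED-HFD, CR20-CTRL and CR20-HFD groups held 6 mice, and the 3 tissues of a mouse gave 72 libraries in all. The labels do not tie mice to dams, so litter mates within a group cannot be told apart from unrelated mice. By the study's methods the pups of a dam were allocated to CTRL or HFD food, so litter mates may also stand in both diet groups.

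GH from the pituitary binds the GH receptor (Ghr), and the receptor's partner kinase activates the transcription factor STAT5B, which switches on Igf1 and Igfals in liver and also Socs2, a feedback inhibitor of the receptor. IGF-1 acts through the IGF-1 receptor (Igf1r), and in blood most of it travels with IGFBP-3 and the acid-labile subunit that Igfals encodes. Insulin keeps Igfbp1 low in liver, fasting raises it, and adipose tissue makes IGF-1 of its own that acts locally.

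Total counts were 9842813 to 19928212 per liver library, 11589675 to 22364963 per eWAT library and 18299494 to 27601208 per pituitary library. A count of 3, taken as the smallest detectable, equalled 0.109 to 0.305 CPM (counts scaled by the library's total) depending on the library, which covers counting error only. The low-count filter kept all 10 genes in liver, 9 in eWAT (without Igfbp1) and 8 in pituitary (without Igfbp1 and Igfals). The tissues carried the labelled identity by marker sums. The summed CPM of 8 hepatocyte markers was at least 79562 in every liver library and at most 983 in eWAT. That of 8 adipocyte markers was at least 5570 in eWAT and at most 308 elsewhere, a value reached by a FED-HFD pituitary library. That of 8 anterior pituitary markers was at least 232737 in pituitary and at most 23.7 elsewhere. The eWAT libraries of FED-HFD mouse 23 and CR20-CTRL mouse 5 stood apart, with the lowest adipocyte sums of all eWAT (5570 and 9820 CPM), and values without them are given beside the fold changes that they moved most.

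The ligand gene Igf1 (ENSMUSG00000020053) lies on chromosome 10 of GRCm39 from 87693642 to 87772904, and the receptor gene Ghr (ENSMUSG00000055737) on chromosome 15 from 3347235 to 3613024. The binding protein genes Igfbp1 (ENSMUSG00000020429, chromosome 11 from 7147651 to 7152546) and Igfbp3 (ENSMUSG00000020427, chromosome 11 from 7156086 to 7164179) are neighbours, on opposite strands and 3539 bases apart. Igfbp4 (ENSMUSG00000017493) lies on the same chromosome from 98932064 to 98945218. Exons of Socs2 and Igf1r overlap other counted genes on the opposite strand, and the strand setting of the counting is not stated, so part of their counts is uncertain.

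The promoters of the 3 genes called higher in CR20-HFD than in FED-HFD eWAT, as described further on, and of Igfbp1, whose liver level varied most between mice, are shown to let their sequences be set beside the values. Each runs from 250 bases before to 50 bases after the start of RefSeq's annotation of GRCm38.p6, a build older than that of the counts. Capitals mark CAAAACAA (the core of the insulin response elements that FOXO factors bind), TATAAA (the TATA box) or TTCNNNGAA (the motif that STAT5 binds), searched on both strands. No base was matched by more than 1 of the 3 motifs in these windows.
Igf1, chr10:87860861-87861160, plus strand: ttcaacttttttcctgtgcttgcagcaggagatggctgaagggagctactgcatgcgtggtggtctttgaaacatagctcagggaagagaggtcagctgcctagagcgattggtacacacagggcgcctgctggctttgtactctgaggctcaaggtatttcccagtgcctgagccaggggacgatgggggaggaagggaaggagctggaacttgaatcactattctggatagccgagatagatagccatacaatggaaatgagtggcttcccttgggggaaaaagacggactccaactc
Igfbp3, chr11:7213874-7214173, minus strand: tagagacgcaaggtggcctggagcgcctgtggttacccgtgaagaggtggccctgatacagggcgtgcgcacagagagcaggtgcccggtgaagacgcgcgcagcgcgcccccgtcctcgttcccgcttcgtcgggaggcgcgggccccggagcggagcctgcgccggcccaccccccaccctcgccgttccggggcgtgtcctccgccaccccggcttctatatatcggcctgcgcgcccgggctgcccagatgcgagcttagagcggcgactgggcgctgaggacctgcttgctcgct
Igfbp4, chr11:99040994-99041293, plus strand: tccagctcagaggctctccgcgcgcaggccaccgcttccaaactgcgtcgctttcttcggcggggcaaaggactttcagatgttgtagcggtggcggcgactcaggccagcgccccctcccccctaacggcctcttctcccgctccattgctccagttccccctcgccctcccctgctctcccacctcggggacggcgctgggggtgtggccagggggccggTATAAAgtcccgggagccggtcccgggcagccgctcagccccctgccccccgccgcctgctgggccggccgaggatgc
Igfbp1, chr11:7197537-7197836, plus strand: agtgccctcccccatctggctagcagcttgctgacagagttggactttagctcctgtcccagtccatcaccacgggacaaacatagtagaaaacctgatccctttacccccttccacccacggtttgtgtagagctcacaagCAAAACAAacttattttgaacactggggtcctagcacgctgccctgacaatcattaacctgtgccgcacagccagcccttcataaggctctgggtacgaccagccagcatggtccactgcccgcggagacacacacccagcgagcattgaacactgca

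The Igfbp1 promoter held CAAAACAA, starting 108 bases before the start site, and the Igfbp4 promoter held TATAAA, starting 28 bases before it. The windows of Igf1 and Igfbp3 held none of the 3 motifs. RefSeq's table gave 14 promoters for 9 of the 10 genes and none for Socs2. TTCNNNGAA was found in 2 of the 14, both of Igfals, and in 8.3% of all 32851 promoters of the same length. CAAAACAA was found in 1 of the 14 and in 2.51% of all promoters, and TATAAA in 2 of the 14 (Ghr and Igfbp4) and in 13.6% of all. A match is a string of letters in the window and no measured binding site.

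Per kilobase of exon, the axis had a different make-up in each tissue. Liver held the most Igf1, with a median of 66.2 CPM per kilobase against 13.7 in eWAT and 0.312 in pituitary, and the ranges over 24 mice did not overlap. Igfals followed the same order, with 56.2 in liver and 8.68 in eWAT, while pituitary libraries had 0 to 12 counts. Ghr was highest in eWAT (112 CPM per kilobase) and liver (62.2), whose ranges overlapped, and lowest in pituitary (0.430). The receptor for IGF-1 itself went the other way. Igf1r had 3.97 CPM per kilobase in pituitary, 1.15 in eWAT and 0.102 in liver, where single libraries held 8 to 59 counts.

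Among the binding proteins, which carry IGF-1 and set how much of it is free, Igfbp4 was the most abundant gene of the axis in liver (461 CPM per kilobase), eWAT (150) and pituitary (27.5). Its range overlapped that of the next gene in each tissue, which was Igfbp2 in liver, Ghr in eWAT and Igfbp3 in pituitary. Igfbp2 stood at 165 in liver, 9.59 in pituitary and 2.55 in eWAT, where its range ran from 0.194 to 10.2. Igfbp3 was highest in pituitary, at 22.9 CPM per kilobase against 7.61 in liver and 2.27 in eWAT. Igfbp1 had a median of 2.41 in liver, 0 to 15 counts per pituitary library and 0 counts in 19 of 24 eWAT libraries. Stat5b, which carries the GH signal into the nucleus, varied least between tissues, at 13.3 in pituitary, 9.92 in eWAT and 6.89 in liver. Socs2 stood at 1.60, 0.473 and 1.06 in the same tissues. Liver RNA was extracted with another kit than eWAT and pituitary RNA, so these levels are a description without a test. With the longest transcript in place of all exons, 22 of the 30 ranks within a tissue stayed the same, and the order of Igf1 and Ghr in liver and of Igfbp4 and Ghr in eWAT turned round.

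**Figure D1:**
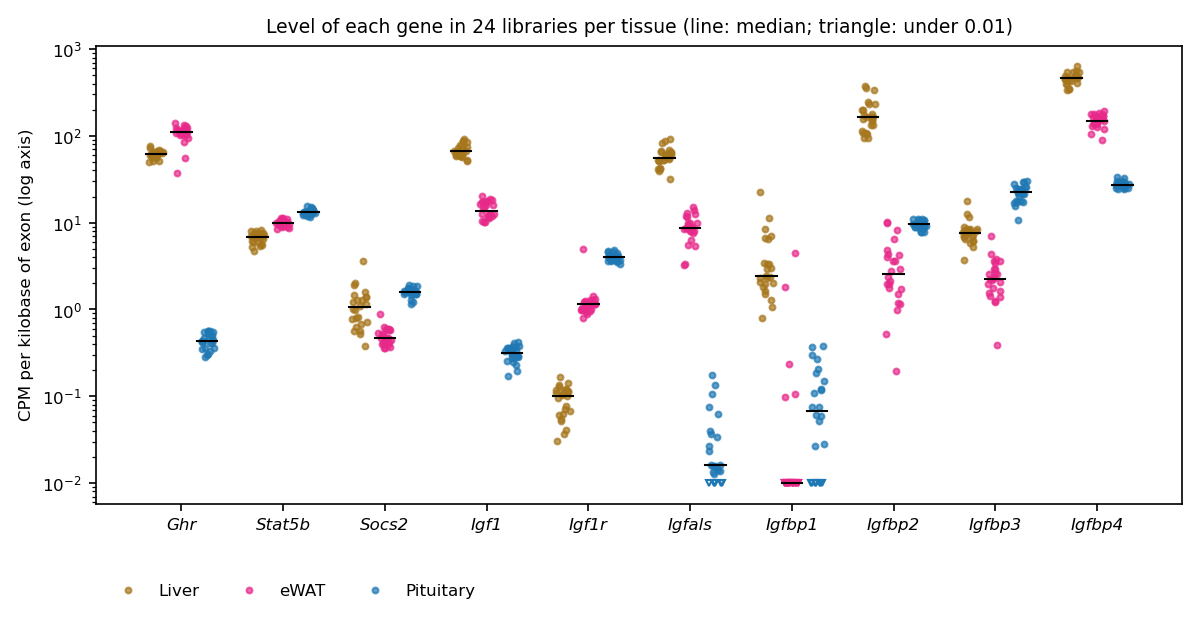
Level of the 10 genes in CPM per kilobase of exon (log axis), 1 point per library and a line at the median of the 24 libraries of a tissue; triangles mark libraries under 0.01. Igf1, Igfals, Igfbp1, Igfbp2 and Igfbp4 have their highest medians in liver, and Igf1r, Igfbp3, Socs2 and Stat5b in pituitary.

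In eWAT, 3 genes rose in CR20-HFD vs FED-HFD, which compares mice of the 2 kinds of dam on the same high fat diet. Igf1, the ligand, was 1.40-fold higher, Igfbp3, its main carrier, 2.19-fold higher, and Igfbp4, a binding protein that adipose tissue secretes, 1.37-fold higher. These 3 were called among the 9 genes of the axis tested, and 0 of the 9 were called lower. By the same test (edgeR's quasi-likelihood test, adjusted p-value under 0.05 over all tested genes), 14.9% of all 15964 tested genes were called in this comparison, and 4.89% were called higher. The edgeR log2 fold change (log2FC) was above 0 for 9 of 9 genes of the axis, with a median of 0.33, against a median of 0.02 over all tested genes. By the difference in mean log2 CPM, Igfbp2 went the other way (-0.25), so the shared direction depends on the measure. Under the fold limits that the study used, an adjusted p-value of at most 0.055 with an absolute log2FC of at least 0.58 or at least 1, Igfbp3 alone of the 3 was called, where 9.73% and 5.49% of all tested genes were.

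The log2 CPM of Igf1 in eWAT was lowest 6.72, median 6.89 and highest 7.00 in FED-HFD, and 7.02, 7.43 and 7.54 in CR20-HFD. All 6 CR20-HFD mice lay above all 6 FED-HFD mice, although the highest FED-HFD mouse and the lowest CR20-HFD mouse lay close together. The log2FC was 0.48 (SE 0.13, 95% interval 0.21 to 0.76, edgeR adjusted p = 0.0176), and the two-sided exact permutation test gave p = 0.0022, the smallest that 6 mice against 6 allow. In the CTRL groups, Igf1 was lowest 6.71, median 6.96 and highest 7.59 in FED-CTRL and 7.02, 7.4 and 7.72 in CR20-CTRL. These groups overlapped, with 4 FED-CTRL mice below every CR20-CTRL mouse, and the log2FC was 0.32 (SE 0.13, edgeR adjusted p = 0.556). Averaged over both diets, Igf1 rose by 0.40 in CR20 vs FED eWAT (SE 0.09, interval 0.21 to 0.60, edgeR adjusted p = 0.0185, exact permutation p = 0.000733). It was the 1 gene of the 9 called in this averaged comparison, in which 6.68% of all tested genes were called and 2.8% were called higher.

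Igfbp3 in eWAT was low, at 30 to 119 counts in FED-HFD libraries and 146 to 194 in CR20-HFD libraries. Its log2 CPM was lowest 0.57, median 2.36 and highest 2.70 in FED-HFD and 3.00, 3.22 and 3.80 in CR20-HFD, so the groups did not overlap. The log2FC was 1.13 (SE 0.34, interval 0.43 to 1.84, edgeR adjusted p = 0.0281, exact permutation p = 0.0022). In FED-CTRL the values were 2.56, 3.13 and 3.71, and in CR20-CTRL 2.21, 3.41 and 4.67, the widest range of the 4 groups. The highest of these values was that of CR20-CTRL mouse 5, whose library also held epididymis markers, as described further on. Averaged over diets, its log2FC of 0.76 in CR20 vs FED did not pass the test (SE 0.24, edgeR adjusted p = 0.0536), but passed without CR20-CTRL mouse 33 (edgeR adjusted p = 0.0327), CR20-CTRL mouse 48 (0.0452), FED-HFD mouse 40 (0.0486) or FED-HFD mouse 11 (0.0443). Without FED-HFD mouse 23 and CR20-CTRL mouse 5 it was 0.49 (edgeR adjusted p = 0.0838), and with limma's voom and quality weights 0.44 (adjusted p = 0.127). With an adjusted p-value of up to 0.055 and the fold limit of 0.58, it was the 1 gene called in the averaged comparison, against 3.96% of all tested genes, and with the limit of 1 none of the 9 was, against 1.85%.

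For Igfbp4, the log2 CPM in eWAT was lowest 8.64, median 9.19 and highest 9.43 in FED-HFD and 9.32, 9.60 and 9.75 in CR20-HFD. The highest FED-HFD mouse lay above the lowest CR20-HFD mouse, and 5 of 6 CR20-HFD mice lay above all FED-HFD mice. The log2FC was 0.45 (SE 0.12, interval 0.20 to 0.70, edgeR adjusted p = 0.0153, exact permutation p = 0.00433). The CTRL groups stood in the opposite order, with 9.26, 9.46 and 9.62 in FED-CTRL and 9.04, 9.31 and 9.62 in CR20-CTRL, and a log2FC of -0.11 (edgeR adjusted p = 0.967). The interaction, which is the log2FC of the HFD in CR20 mice minus that in FED mice, was 0.57 for Igfbp4 (SE 0.17, interval 0.21 to 0.92, edgeR adjusted p = 0.0796). It passed the test without FED-HFD mouse 40 (edgeR adjusted p = 0.0375). By edgeR 0 of the 9 genes were called in the interaction, where 2.29% of all tested genes were. An unadjusted p-value under 0.05 was held by 1 of the 9 and by 18.2% of all tested genes. DESeq2 called Igfbp4 (adjusted p = 0.0278), and limma's voom, with or without quality weights, called 0.

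**Figure D2:**
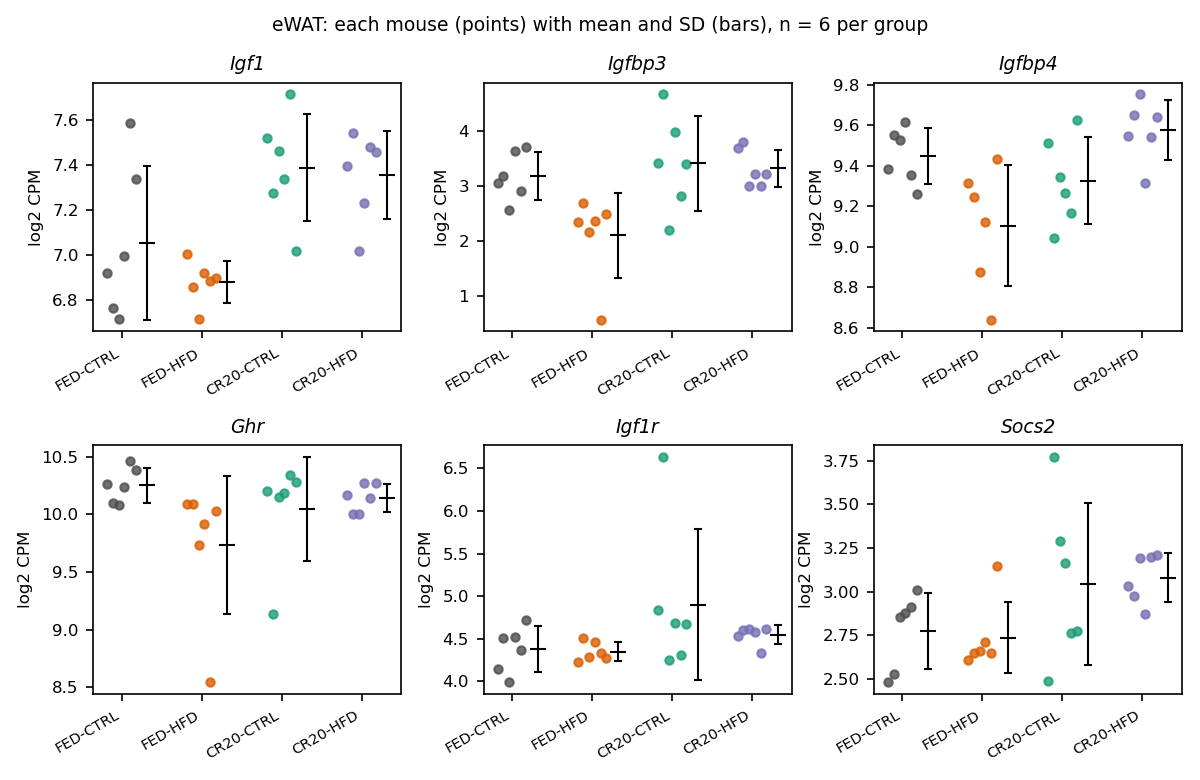
Log2 CPM in eWAT of 6 genes, 1 point per mouse, with the mean (horizontal line) and SD (bars) of the 6 mice of each group beside the points. For Igf1 and Igfbp3 every CR20-HFD point lies above every FED-HFD point, and for Igfbp4 the highest FED-HFD mouse (9.43) lies above the lowest CR20-HFD mouse (9.32).

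Cell type markers moved with the same comparison. The summed CPM of 12 macrophage markers was 2787 to 12662 in FED-HFD and 1527 to 2602 in CR20-HFD, without overlap, and 9 of the 12 were called lower in CR20-HFD. The sum of 8 adipocyte markers was 5570 to 20923 in FED-HFD and 22397 to 25432 in CR20-HFD, and 2 of the 8 were called higher, so these groups did not overlap either. No marker of the 7 for adipose stromal cells or the 4 for mesothelium was called. Of liver cell markers that passed the filter in eWAT, 1 of 5 for hepatocytes was called higher and 2 lower, 1 of 2 for liver endothelium lower and 1 of 4 for hepatic stellate cells lower. The part of these cell types in the values of Igf1, Igfbp3 and Igfbp4 was not tested, and in bulk tissue fewer cells of a type and less RNA per cell cannot be told apart. Without FED-HFD mouse 23 and CR20-CTRL mouse 5, the 3 genes were called as before, with a log2FC of 0.48 for Igf1, 0.94 for Igfbp3 and 0.37 for Igfbp4 (edgeR adjusted p = 0.0270, 0.0178 and 0.0157). Mice fall into 3 ranges of animal number (under 20, 20 to 39, 40 and above), whose meaning the labels do not give, and within them CR20-HFD minus FED-HFD was 0.59, 0.24 and 0.58 for Igf1, 1.35, 2.55 and 0.60 for Igfbp3, and 0.46, 0.90 and 0.16 for Igfbp4. These ranges held 4, 1 and 1 FED-HFD mice and 2 CR20-HFD mice each, and the 1 FED-HFD mouse of the middle range is mouse 23, so the values are a description. Leaving out any single mouse kept Igf1 and Igfbp4 called, whereas Igfbp3 missed the threshold without CR20-HFD mouse 6, CR20-HFD mouse 7, FED-HFD mouse 12 or FED-HFD mouse 23 (edgeR adjusted p = 0.0567, 0.0653, 0.0530 and 0.0612).

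The receptor and signalling genes of eWAT were not called in CR20-HFD vs FED-HFD. Ghr had a log2 CPM of 8.54, 9.97 and 10.09 (lowest, median, highest) in FED-HFD and 10.00, 10.15 and 10.27 in CR20-HFD, and 4 CR20-HFD mice lay above every FED-HFD mouse. Its log2FC was 0.33 (SE 0.20, interval -0.08 to 0.74, edgeR adjusted p = 0.273), and 0.17 without FED-HFD mouse 23, whose Ghr was the lowest of all eWAT libraries (edgeR adjusted p = 0.518). Socs2 stood at 2.61, 2.65 and 3.15 in FED-HFD and 2.87, 3.11 and 3.21 in CR20-HFD, where FED-HFD mouse 40 alone overlapped the CR20-HFD mice. The log2FC of Socs2 was 0.34 (SE 0.17, interval -0.01 to 0.69, edgeR adjusted p = 0.185), and limma's voom with quality weights called it. Averaged over diets it was 0.33 in CR20 vs FED (edgeR adjusted p = 0.0957), and without FED-HFD mouse 40 it was 0.38 and passed (adjusted p = 0.0496). Stat5b, by contrast, hardly differed, with medians from 6.08 to 6.12 in the 4 groups and an interval of -0.13 to 0.18 for CR20-HFD vs FED-HFD. The SD of Stat5b within groups was 0.119, below that of all but 5.03% of the tested eWAT genes.

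In the comparisons that include CR20-CTRL, the values of Igf1r in eWAT rested on a single library. CR20-CTRL mouse 5 had a log2 CPM of 6.64 against a group median of 4.68, while the lowest and highest of the other groups lay between 3.99 and 4.72. The log2FC of CR20-CTRL vs FED-CTRL was 0.79 (SE 0.28, edgeR adjusted p = 0.428) with this mouse and 0.16 without it. Likewise CR20-HFD vs CR20-CTRL went from -0.63 (edgeR adjusted p = 0.828) to -0.02, and the averaged CR20 vs FED from 0.49 (edgeR adjusted p = 0.134) to 0.18. The groups of CR20-HFD vs FED-HFD do not include this mouse. There 5 of 6 CR20-HFD mice lay above every FED-HFD mouse, with a log2FC of 0.20 (edgeR adjusted p = 0.68, exact permutation p = 0.0173). The edgeR fit took in all 24 eWAT libraries, so mouse 5 entered that adjusted p-value, but not the permutation test. Without mouse 5 the log2FC of CR20-HFD vs FED-HFD was 0.19 (edgeR adjusted p = 0.25). The CR20-CTRL library of mouse 5 had 106 counts of Igfbp1, where 19 of 24 eWAT libraries had 0. Its summed CPM of 8 epididymis and testis markers was 52.2, and this sum reached 133 in CR20-CTRL mouse 4 and 26.6 in CR20-HFD mouse 6. In the other CR20 libraries the sum was at most 0.232, and in FED libraries at most 0.0506. The part of these markers in the values of CR20 vs FED eWAT, Igfbp3 among them, was not tested.

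With the HFD in FED mice, 0 of the 9 genes were called by edgeR, while 10.5% of all tested genes were. An unadjusted p-value under 0.05 was held by 3 of the 9, against 25.7% of all tested genes. These 3 were Igfbp3, with a log2FC of -1.01 (SE 0.34, edgeR adjusted p = 0.0592, exact permutation p = 0.00433), Igfbp4 with -0.32 (SE 0.12, adjusted p = 0.0893) and Ghr with -0.44 (SE 0.20, adjusted p = 0.159). For Igfbp3, 5 of 6 FED-HFD mice lay below every FED-CTRL mouse, and for Igfbp4 and Ghr 4 of 6 did. Limma's voom with quality weights, the study's own test, called all 3 (adjusted p = 0.0286, 0.0147 and 0.0209), DESeq2 called Igfbp3 (0.0261), and voom without weights called 0. The calls depended on which mice were kept. Without FED-HFD mouse 23 alone, Igfbp3 had a log2FC of -0.82, Igfbp4 -0.24 and Ghr -0.28, and none passed (edgeR adjusted p = 0.139, 0.234 and 0.333). Ghr without mice 23 and 5 had a log2FC of -0.28 and was called (edgeR adjusted p = 0.0339), and so was Igfbp3 (-0.82, adjusted p = 0.0486), whereas Igfbp4 was not (-0.24, adjusted p = 0.143). Igfbp4 passed without FED-HFD mouse 40 (edgeR adjusted p = 0.0375), and Igfbp3 without CR20-CTRL mouse 33 (0.0392), CR20-CTRL mouse 5 (0.0248) or FED-HFD mouse 11 (0.0451). The log2FC was below 0 for 9 of 9 genes, with a median of -0.32, against a median of -0.0016 over all tested genes. This comparison shares its 6 FED-HFD mice with CR20-HFD vs FED-HFD.

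In CR20 eWAT the HFD gave 0 calls among the 9 genes and 0% of all tested genes, with Igf1r alone at an unadjusted edgeR p-value under 0.05, against 6.03% of all tested genes. By the exact permutation test, Igfbp4 had an unadjusted p = 0.0411. Its mean log2 CPM was 0.25 higher in CR20-HFD, and 3 CR20-HFD mice lay above every CR20-CTRL mouse. DESeq2 and both forms of voom also called 0 of the 9. CR20-CTRL vs FED-CTRL gave 0 calls among the 9 as well, again with 0% of all genes called by edgeR and 0 of the 9 by the other tools. Igf1r and Igf1 had an unadjusted p-value under 0.05 there, as had 7.39% of all tested genes. Averaged over dams, the HFD called 0 of 9 against 0.251% of all genes, and only Igfbp3 was under 0.05 before adjustment (log2FC -0.64, edgeR adjusted p = 0.17, and -0.37 with adjusted p = 0.279 without mice 23 and 5). Before adjustment, 17.1% of all tested genes were under 0.05 in this averaged comparison. Igfals and Igfbp2, the remaining 2 tested genes, had log2FC values from -0.48 to 0.28 in the 4 comparisons of groups and intervals that held 0.

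**Figure D3:**
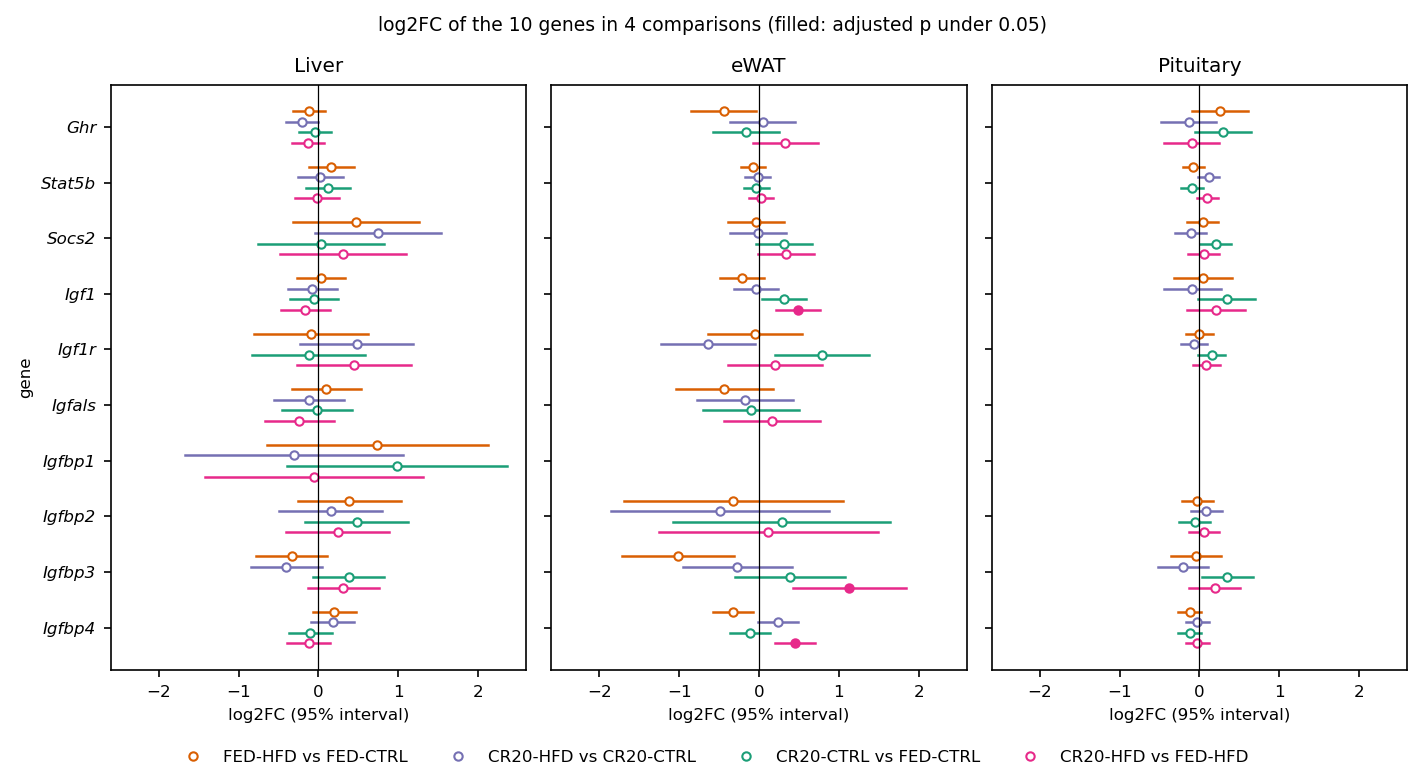
Log2FC of the 10 genes with 95% intervals in 4 comparisons per tissue, from edgeR; filled points have an adjusted p-value under 0.05. The filled points are Igf1, Igfbp3 and Igfbp4 in CR20-HFD vs FED-HFD of eWAT, and genes that failed the low-count filter have no point.

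In liver, the main source of circulating IGF-1, 0 of the 10 genes were called in any comparison. This held for FED-HFD vs FED-CTRL (0.109% of all tested genes called), CR20-HFD vs CR20-CTRL (0.515%), CR20-CTRL vs FED-CTRL (0%), CR20-HFD vs FED-HFD (0%), the interaction (0%), the diet averaged over dams (1.74%) and the dams averaged over diets (0%). At an unadjusted edgeR p-value under 0.05 there were 3 genes for the averaged diet, 1 for CR20-HFD vs CR20-CTRL and 1 for the averaged dams. DESeq2 and limma's voom, with or without quality weights, called 0 of the 10 genes in each of these.

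Hepatic Igf1 was nearly level across the groups. Its log2 CPM was lowest 9.23, median 9.37 and highest 9.80 in FED-CTRL, 9.21, 9.42 and 9.86 in FED-HFD, 9.08, 9.46 and 9.67 in CR20-CTRL, and 9.05, 9.31 and 9.57 in CR20-HFD. All 4 groups overlapped over most of their range. The HFD, averaged over dams, gave a log2FC of -0.02 (interval -0.24 to 0.19), and CR20 vs FED, averaged over diets, gave -0.11 (interval -0.33 to 0.10). Igfals, whose product holds IGF-1 in the circulation, had medians of 7.54, 7.52, 7.52 and 7.4 in the same order and a log2FC of -0.01 with the HFD (interval -0.32 to 0.30).

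Ghr varied less between mice of a group than nearly all liver genes, with an SD of 0.119 against a median of 0.405 over all tested genes, and 0.348% of those had a lower SD. Its log2 CPM was lowest 9.28, median 9.34 and highest 9.41 in CR20-CTRL and 9.0, 9.10 and 9.37 in CR20-HFD, so that 5 of 6 CR20-HFD mice lay below every CR20-CTRL mouse. The log2FC was -0.20 (SE 0.10, edgeR adjusted p = 0.514, exact permutation p = 0.013). In FED mice it was -0.11 (edgeR adjusted p = 1), with 9.16, 9.35 and 9.58 in FED-CTRL and 9.14, 9.24 and 9.42 in FED-HFD, and averaged over dams -0.16 (SE 0.07, interval -0.30 to -0.02, adjusted p = 0.297, exact permutation p = 0.00432). A log2FC of this size is 0.895-fold, and it did not pass the adjustment over all liver genes.

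Socs2 and Igfbp3 were the other genes with an unadjusted p-value under 0.05 for the averaged diet in liver. Socs2, a target of STAT5, had a log2FC of 0.61 with the HFD (SE 0.27, interval 0.05 to 1.17, edgeR adjusted p = 0.32), or 0.39 without CR20-HFD mouse 7 (adjusted p = 0.603), and its log2 CPM ran from 3.01 to 4.89 in FED-HFD, 3.13 to 5.77 in CR20-HFD, 3.13 to 4.30 in FED-CTRL and 2.58 to 4.48 in CR20-CTRL. The groups overlapped throughout. Igfbp3, which in liver comes largely from nonparenchymal cells, had a log2FC of -0.37 with the HFD (SE 0.15, edgeR adjusted p = 0.278) and 0.34 for CR20 vs FED (SE 0.15, edgeR adjusted p = 0.999), which were -0.17 and 0.21 with limma's voom and quality weights. Hepatic Igfbp4 had a log2FC of 0.19 with the HFD (interval -0.00159 to 0.38, edgeR adjusted p = 0.384) and Igfbp2 0.27 (interval -0.18 to 0.72).

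Igfbp1 had the widest spread of the axis in liver. Its SD within groups was 1.14 on the log2 scale, above that of 98.3% of the tested liver genes. The log2 CPM was lowest 0.58, median 1.88 and highest 3.53 in FED-CTRL, 1.42, 2.31 and 4.29 in FED-HFD, 0.97, 1.86 and 5.27 in CR20-CTRL, and 2.0, 2.46 and 3.85 in CR20-HFD, or 23 to 659 counts per library. All groups overlapped, and the highest value belonged to CR20-CTRL mouse 47. The log2FC of the averaged diet was 0.22 (interval -0.75 to 1.18), the widest interval of the 10 genes in this comparison. Stat5b (medians 5.47 to 5.65) and Igf1r, with 8 to 59 counts per library, had no p-value under 0.05 in liver.

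**Figure D4:**
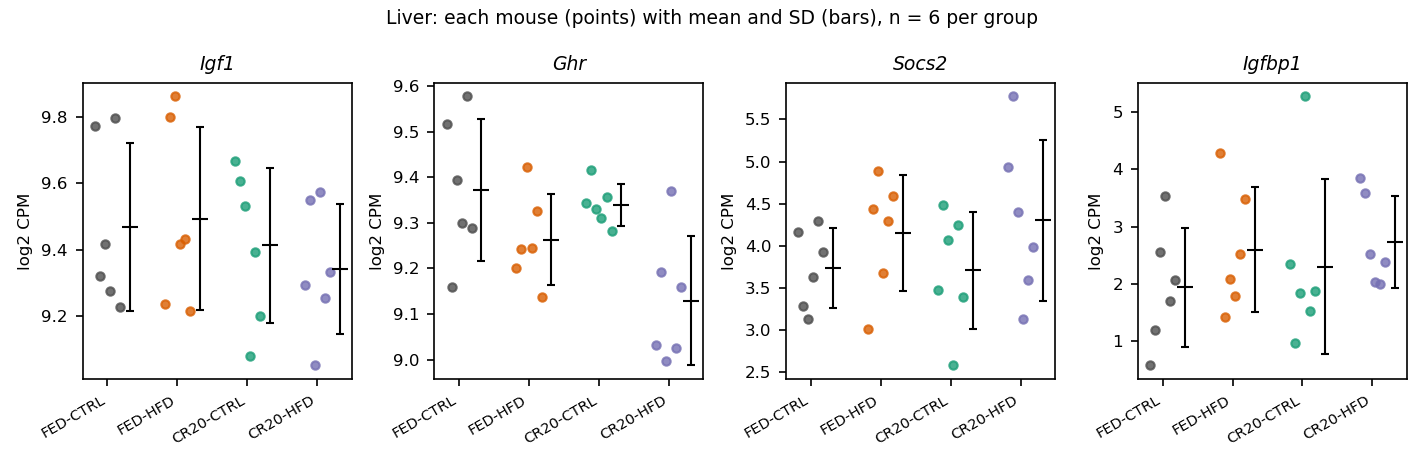
Log2 CPM in liver of Igf1, Ghr, Socs2 and Igfbp1, 1 point per mouse, with the mean (horizontal line) and SD (bars) of the 6 mice of each group. The 4 groups overlap in each panel, and in the Ghr panel 5 of the 6 CR20-HFD mice lie below every CR20-CTRL mouse.

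In the pituitary, where GH is made, 0 of the 8 tested genes were called in any comparison, against 0% of all 16657 tested genes in 6 of the 7 comparisons and 0.024% for the averaged diet. DESeq2 and both forms of voom called 0 of the 8 too. For the averaged dams, 3 genes had an unadjusted edgeR p-value under 0.05, namely Igfbp3 with a log2FC of 0.27 (SE 0.11, adjusted p = 0.297), Igf1 with 0.28 (SE 0.12, adjusted p = 0.34) and Igf1r with 0.12 (SE 0.06, adjusted p = 0.371). In CR20-CTRL vs FED-CTRL, the same held for 2 genes, Igfbp3 with 0.35 (edgeR adjusted p = 0.237) and Socs2 with 0.20 (adjusted p = 0.271), and in the interaction for Stat5b with 0.19 (adjusted p = 0.452). Without FED-CTRL mouse 16, Igfbp3 had a log2FC of 0.21 and Socs2 of 0.13 in CR20-CTRL vs FED-CTRL (edgeR adjusted p = 0.503 and 0.569). The other 4 comparisons had 0 genes under 0.05. Of all tested pituitary genes, 13.2% were under 0.05 for the averaged dams, 17.3% in CR20-CTRL vs FED-CTRL and 11.0% in the interaction.

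Pituitary Igfbp3 had a log2 CPM of 5.28, 6.22 and 6.62 (lowest, median, highest) in FED-CTRL, 5.80, 6.14 and 6.44 in FED-HFD, 6.35, 6.50 and 6.73 in CR20-CTRL, and 5.89, 6.39 and 6.73 in CR20-HFD. The groups overlapped, and the medians of both CR20 groups lay above those of both FED groups. Igf1r, through which IGF-1 restrains GH release, was steady, with medians of 6.20, 6.27, 6.41 and 6.28 in the same order. Igf1 itself was low in pituitary, with group medians from 1.59 to 1.86. Stat5b was among the steadiest pituitary genes, with an SD of 0.0975 and only 3.01% of the tested genes below it. The Gh gene, which is not 1 of the 10, had a log2FC of 0.05 for the averaged dams (edgeR adjusted p = 0.857) and 0.08 for the averaged diet (adjusted p = 0.957).

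Beyond the 10 genes, 25 others of the axis (pituitary GH control, JAK2-STAT signalling, IGF-2, insulin receptor and further binding proteins) were listed. In eWAT 19 were tested. Between the HFD groups, Prlr (the prolactin receptor) rose by 0.81 in CR20-HFD (edgeR adjusted p = 0.0238) and Igf2r (which clears IGF-2) fell by 0.66 (adjusted p = 0.0199). For FED mice on the HFD against FED mice on CTRL food, a comparison that shares the FED-HFD group, Prlr fell by 0.78 (edgeR adjusted p = 0.0361) and Igf2r rose by 0.60 (adjusted p = 0.0401). Igfbp7 rose by 0.52 in CR20 vs FED averaged over diets (edgeR adjusted p = 0.0230), and the remaining 4 comparisons called 0 of the 19. The calls were 2 of 19 where 14.9% of all tested genes were called (CR20-HFD vs FED-HFD), 2 of 19 where 10.5% were (the HFD in FED mice) and 1 of 19 where 6.68% were (dams averaged), so nothing is read from them about the list. In liver 0 of 15 tested genes and in pituitary 0 of 24 were called in any comparison. The smallest p-value in liver was that of Socs1 in FED-HFD vs FED-CTRL (log2FC 2.8, edgeR adjusted p = 0.264), and in pituitary that of Prlr in CR20-CTRL vs FED-CTRL (log2FC 0.37, edgeR adjusted p = 0.109).

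Liver genes that GH controls differently in males and females were followed as a readout of the hormone's pattern. Of the 10 male-biased genes tested in liver, Selenbp2 rose with the HFD averaged over dams (log2FC 1.34, edgeR adjusted p = 0.0248) and the others were not called, and of the 8 female-biased genes 5 were tested and 0 were called (smallest p for Cux2, log2FC -1.65, edgeR adjusted p = 0.109). Of 8 insulin- and FOXO1-responsive genes, Srebf1, which drives fat synthesis, fell by 1.18 with the HFD (edgeR adjusted p = 0.00694). Each of these 2 calls is the single one of its list, where 1.74% of all tested liver genes were called. The median log2FC was 0.14 for the male-biased, -0.68 for the female-biased and -0.10 for the insulin-responsive genes in this comparison, against -0.01 over all tested liver genes. In pituitary 0 genes of these 3 lists were called (the smallest p of each was that of Selenbp2, Fmo2 and Trib3), and in eWAT 0 of 3 tested female-biased genes were. Also in eWAT, Trib3 rose by 0.42 and Selenbp2 by 0.74 in CR20-HFD vs FED-HFD and Serpina3k fell by 3.44, while with the HFD in FED mice Cyp7b1, Serpina3k and Elovl3 rose by 1.34, 3.45 and 1.70, and Serpina3k was called in the interaction (edgeR adjusted p from 0.0338 to 0.0487). In eWAT 14.9%, 10.5% and 2.29% of all tested genes were called in these 3 comparisons. Serpina3k is abundant in liver, and the 5 hepatocyte markers tested in eWAT had a median log2FC of -2.91, 2.52 and -5.13 in the same order. The summed CPM of all 8 ran from 4.04 to 854 in FED-HFD and from 93.5 to 983 in CR20-HFD, so the groups overlapped. By median CPM in eWAT, this sum rests mainly on Cyp2e1 (149) and then Alb (18.4), with the others at 0.808 or lower. It therefore says little about the other markers. The part of these markers in the values of Serpina3k was not tested.

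Across the 24 mice, the liver genes of the axis varied together in part. After the mean of each group was subtracted, Ghr and Igf1 had a Pearson's r of 0.758 (Spearman's rho 0.766, permutation p = 3e-05 for both, adjusted p = 0.00135 over 45 pairs), and r was 0.723 without the 2 mice farthest from the median. Within ranges of animal number, r was 0.743 under 20 and 0.873 at 40 and above, and was not computed for the 5 mice from 20 to 39. Igf1 and Igfbp2 had an r of 0.692 (rho 0.655, permutation p = 0.00076 and 0.00248, adjusted p = 0.0171 and 0.0372; 0.647 without 2 mice). Igfals and Stat5b had a negative r of -0.616 (rho -0.630, permutation p = 0.00274 and 0.00126, adjusted p = 0.0411 and 0.0283; -0.638 without 2 mice). Igf1r and Igfbp2 had an r of -0.587 (rho -0.553, permutation p = 0.00405 and 0.00883, adjusted p = 0.0456 and 0.0993), and this missed the threshold without 2 mice (-0.521, adjusted p = 0.117). Igf1 and Igfbp1 had an r of -0.544 (rho -0.501, permutation p = 0.0105 and 0.0245, adjusted p = 0.0676 and 0.157).

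These relations stood within a wide background, because many liver genes varied with Igf1. Over 8196 liver genes with a mean log2 CPM of at least 3, the r with Igf1 ran from -0.68 at the 5th to 0.71 at the 95th percentile, and 1.22% of them reached the r of Ghr, 6.3% that of Igfbp2. The log2 of the library total had an r of -0.342 with Igf1. The 5 genes most like Igf1 were Mup3 (r 0.86), Ndufb3 (0.85), Llph (0.84), Timm8a1 (0.84) and Rpl10a (0.84), and Stat3 of the axis had -0.86. For Igfbp1, the 5th to 95th percentile was -0.48 to 0.47 over 8197 genes, and its r with Igf1 was reached or passed downwards by 1.2% of them. The 5 most like Igfbp1 were Ip6k2 (0.79), Gramd2b (0.76), Cpeb2 (0.74), Tec (0.71) and Arid2 (0.68). Genes like Socs2 included Mcm10 (0.89), Gm30262 (0.83), Abhd17b (0.77) and Gosr1 (0.75), while Cish, another feedback inhibitor that STAT5 switches on, had 0.58. These values are over 24 libraries and describe likeness only.

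**Figure D5:**
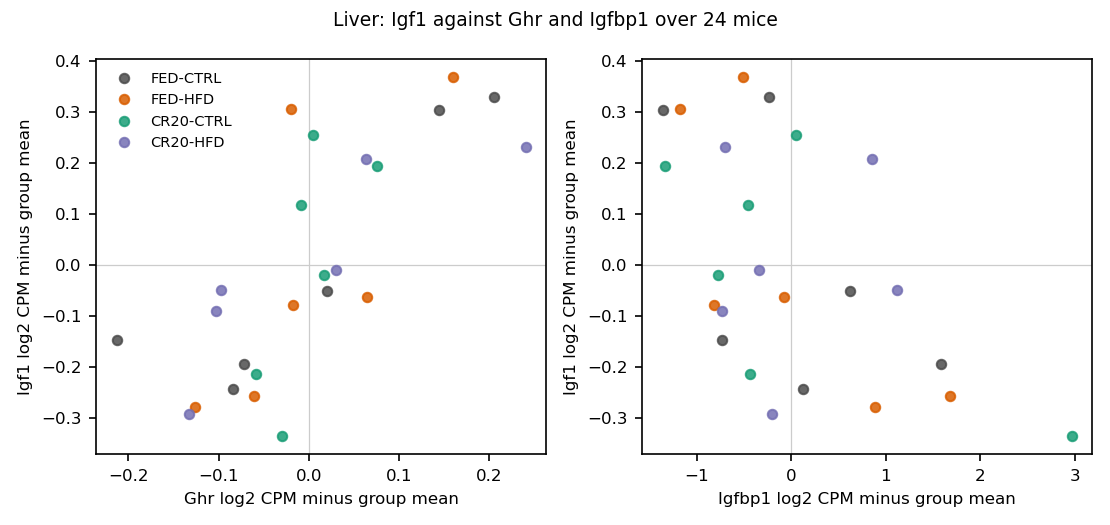
Liver log2 CPM of Igf1 against that of Ghr (left) and Igfbp1 (right), each with its group mean subtracted, 1 point per mouse and 24 mice per panel. Igf1 goes up with Ghr (r 0.758) and down with Igfbp1 (r -0.544), and the point farthest right in the Igfbp1 panel is CR20-CTRL mouse 47.

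In eWAT, 1 of 36 pairs passed, Igf1r and Igfbp3 with an r of 0.644 (rho 0.597, permutation p = 0.0006 and 0.00193, adjusted p = 0.0216 and 0.0695), and it fell short without CR20-CTRL mice 5 and 33 (0.490, adjusted p = 0.274). Igf1 and Ghr had an r of 0.246 there (0.577 without CR20-CTRL mouse 5 and FED-HFD mouse 23), and Igf1 and Igfbp3, which both rose in CR20-HFD vs FED-HFD, -0.02 within groups. The genes most like Igf1 in eWAT were Emp1 (0.70), Slc7a6 (0.62), Slc20a1 (0.62), Tatdn2 (0.61) and Gli2 (0.61), and Cish had 0.60. In pituitary, 0 of 28 pairs passed, the highest r being that of Igf1 and Socs2 (0.679, permutation p = 0.00267, adjusted p = 0.0655). The same gene in a pair of tissues of the same mice gave 0 of 25 relations past the adjustment, the highest being Igf1r in liver and pituitary (r 0.541, rho 0.490, permutation p = 0.0134 and 0.0266, adjusted p = 0.334 and 0.666). For Igf1 itself, r was 0.207 between liver and eWAT, 0.282 between liver and pituitary and 0.195 between eWAT and pituitary, none of which passed.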

How the data were processed

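Whole-tissue RNA of 24 male mice was sequenced, giving 72 libraries. Per the study's methods and the submitters' processing notes, the authors trimmed reads with Trimmomatic, aligned them to GRCm39 with STAR and counted them with featureCounts of Subread, and the deposited values are raw gene counts, whole numbers without normalization. Versions are not given in the sources used here, nor is the strand setting of the counting. Of 55416 identifiers, 54749 matched the GENCODE annotation used for symbols.

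The 10 genes, the gene lists and the tests were chosen with earlier results of these data known. In each tissue, genes that passed filterByExpr of edgeR 4.0.16 (13787 in liver, 15964 in eWAT, 16657 in pituitary) were scaled with TMM and fitted over 24 libraries with the quasi-likelihood test. There were 7 comparisons, namely 4 between groups, the interaction, and the diet and the dams each averaged over the other factor. A call was a Benjamini-Hochberg adjusted p-value under 0.05 over all tested genes. SE was the absolute log2FC over the square root of F, and log2 CPM used a prior count of 2. Exact permutation tests, two-sided, covered 924 splits of 12 mice (for averaged comparisons, 853776 combined splits of both pairs of groups), and correlations used 100000 permutations within groups, with group means subtracted. Since labels do not tie mice to litters, p-values measure the spread between these mice and not between dams, to which the restriction was applied. Genes were named if they were members, were called in a list or had the smallest p of a list, and the 5 genes most like Igf1, Igfbp1 and Socs2 in liver and Igf1 in eWAT were named. Some results that this rule would name are not reported here. Gh, Stat3 and Cish were named after their values were seen.

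Alternatives were DESeq2 1.42.0, limma 3.58.1 voom with and without quality weights, other size factors and filters, fold limits, the groups compared alone, animal-number range as a covariate, each mouse left out and, chosen after seeing the data, both eWAT libraries that stood apart left out. Tests were checked on simulated counts, with changes planted in 200 genes that were larger than those of the genes called here. In CR20-HFD vs FED-HFD edgeR recovered 195 to 200 of them per tissue and wrongly called 8 to 14 other genes. The simulated libraries were independent, so the check does not cover smaller changes, litter mates or shifts in cell types. R 4.3.3 and Python 3.11.15 were used. The 24 libraries of a tissue limit precision for low genes.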

Additional observations from a re-analysis of the deposited data

Results flagged for a closer look

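Of 108 sets of 6 mice (9 genes in eWAT, 8 in pituitary and 10 in liver, each in 4 groups), 9 held a single mouse whose gap to the nearest of the others was large against the range of the group, where chance flags about 1 in 20 groups. All values are log2 CPM. In eWAT, FED-HFD mouse 23 had the lowest Ghr of its group, at 8.54 against a group median of 9.97, and the lowest Igfbp3, at 0.57 against 2.36. CR20-CTRL mouse 5 had the lowest eWAT Ghr of its group (9.13 against a median of 10.19) and the highest Igf1r (6.64 against 4.68). Both libraries also had the lowest adipocyte marker sums, and their part in these values was not tested. Also in eWAT, FED-HFD mouse 40 had the highest Socs2 (3.15 against 2.65) and CR20-HFD mouse 45 the lowest Igf1r (4.33 against 4.59), a gap that is small in itself. In liver, CR20-CTRL mouse 47 had the highest Igfbp1 (5.27 against 1.86). In pituitary, FED-HFD mouse 10 had the highest Igfbp4 (7.18 against 6.88) and CR20-HFD mouse 32 the highest Socs2 (4.82 against 4.59).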

How the results depend on the processing

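In eWAT, 3 calls were made over the 4 comparisons between groups. Their number was 4 with DESeq2 and 4 when animal-number range was a covariate (both adding Igfbp3 in FED-HFD vs FED-CTRL), 7 with limma's voom and quality weights, 5 without FED-HFD mouse 23 and CR20-CTRL mouse 5, 1 (Igfbp3) when the limit on adjusted p was 0.055 and that on absolute log2FC 0.58, and again 1 when the latter was 1. For the dams averaged over diets, the 1 call became 2 with DESeq2, 2 when animal-number range was a covariate (Igf1 and Igfbp3 in both) and 0 under the log2FC limit of 1. The interaction went from 0 calls to 1 (Igfbp4) with DESeq2, and the 1 related pair of eWAT genes to 0 without the 2 mice farthest from the median. The causes were not tested. With each mouse left out in turn, calls ran from 2 to 4 over the 4 comparisons of eWAT, from 1 to 3 for the dams averaged, from 0 to 1 for the interaction, and stayed at 0 for the diet averaged and for liver and pituitary. Without FED-HFD mouse 40, the dams averaged gave 3 calls (Igf1, Igfbp3 and Socs2) and the interaction 1 (Igfbp4). No value with an unadjusted p-value under 0.05 changed sign under the alternatives tried. The groups compared hold different mice and share no animal number. By the study's methods the pups of a dam were allocated to CTRL or HFD food, but the labels do not name the dam. No analysis paired by litter was therefore possible. With 8 to 59 counts of Igf1r in liver and 30 to 194 of Igfbp3 in the HFD eWAT libraries, both genes carry more counting error than genes with more counts. The part of counting error in their spread was not tested.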
